A study of Homo sapiens with 2 samples.

Results

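The spliceosome core protein genes described here are 40 genes chosen by symbol from the deposited transcript table, out of 16645 annotated genes that had a read. They code for the proteins of the Sm ring, the U1, U2 and U5 small nuclear ribonucleoproteins (snRNPs), the SF3A, SF3B and U2AF complexes, the U4/U6.U5 tri-snRNP, the minor U11/U12 snRNP, the LSM rings and the Prp19 complex. All 40 were read in both libraries, through 1579 of the 237608 transcript models in the table. The data come from direct RNA sequencing of GM12878, an Epstein-Barr virus transformed B-lymphoblastoid line, which forms the only group of the study, with 2 replicate libraries and no treatment. Total RNA was the labelled molecule, a depleted RNA served as library input, and a nanopore read each native strand from its 3′ end, so that 1 read is 1 RNA molecule or the 3′ part of one. The study was made to evaluate a long-read pipeline for finding and counting transcripts. The only comparison the design allows is between the replicates. Nothing in the labels says that the replicates came from separate cultures, so every test below compares the reads of 2 libraries, not conditions. Each test asks whether the libraries differ beyond counting error and does not measure the spread between replicates. A difference found may be technical.

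The spliceosome removes introns from pre-messenger RNA. Each of the U1, U2, U4 and U5 snRNPs is built on a ring of Sm proteins, while U6 carries a ring of LSM proteins. U1 first binds the 5′ splice site, U2AF and then U2 with its SF3A and SF3B proteins bind the 3′ splice site region, and the tri-snRNP joins and is remodelled into the active enzyme. A second, minor spliceosome uses U11 and U12 for a small class of introns.

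The libraries held 1360368 and 1510998 reads, so 1 read was worth 0.735 CPM in replicate 1 and 0.662 CPM in replicate 2. CPM, the read count scaled to a common library total, is the level used here. The 7 B cell marker genes ranged from 39.7 to 7766 CPM in replicate 1 and from 46.3 to 8088 in replicate 2. Of 8 markers of T cells, myeloid cells, fibroblasts, hepatocytes and erythroid cells, 5 had no read in either library and the highest, CD3E, had 5 and 16 reads. The table sorts models into known models, which match an annotated transcript, incomplete splice matches (ISM), which carry part of the junctions of an annotated transcript, NIC models, which join annotated splice sites in an unannotated way, NNC models, with at least 1 unannotated splice site, and genomic models, which lie on a gene but fit none of its splicing patterns.

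Sequences are shown first for U2AF1 and SNRPB, whose reads were divided between alternative exons or acceptors, and for SNRPG, SNRPE and LSM5. The last 3 are among the 10 genes with a NIC or NNC model of at least 5 reads in each library. They were picked for a short internal exon, by a limit set after their values were seen. The sequences were taken from GENCODE release 29 transcripts on GRCh38 and are written 5′ to 3′ on the RNA strand. U2AF1, the subunit of the U2AF dimer that contacts the AG at the 3′ splice site, has a pair of alternative coding exons of 67 bases, exon 3 of its models, on the minus strand at chr21:43100453-43100519 in U2AF1-201 and chr21:43101366-43101432 in U2AF1-202. Capitals mark the 23 of 67 positions at which these exons differ.
U2AF1-201 exon 3: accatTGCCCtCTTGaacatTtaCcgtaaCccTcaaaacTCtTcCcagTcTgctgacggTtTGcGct
U2AF1-202 exon 3: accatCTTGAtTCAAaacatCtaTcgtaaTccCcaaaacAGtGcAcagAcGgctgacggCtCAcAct

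SNRPB codes for the Sm proteins B and B′, which differ at their C-terminal end through the choice of the acceptor of the last exon on chromosome 20. The acceptor of SNRPB-202 lies 146 bases downstream of that of SNRPB-201. Below, the last coding bases of the exon before are in lower case and the coding bases of the last exon are in capitals, 8 for SNRPB-201 (chr20:2461932-2461939) and 35 for SNRPB-202 (chr20:2461759-2461793), both on the minus strand and without the stop codon.
SNRPB-201 end of coding sequence: cctcctccccctgggatgcgagGCCTTCTT
SNRPB-202 end of coding sequence: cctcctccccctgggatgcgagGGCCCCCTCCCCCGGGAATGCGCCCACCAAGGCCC

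SNRPG, SNRPE and LSM5 each contain an internal coding exon of 30 bases or fewer, and they had the highest NNC shares among the 40 genes. The short exon is in capitals, with 15 bases of the spliced transcript on each side in lower case. The SNRPG exon of 23 bases lies at chr2:70289350-70289372 on the minus strand, the SNRPE exon of 27 bases at chr1:203862196-203862222 on the plus strand, and the LSM5 exon of 28 bases at chr7:32488625-32488652 on the minus strand.
SNRPG-201 exon 2: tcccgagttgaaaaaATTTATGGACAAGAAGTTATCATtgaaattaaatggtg
SNRPE-202 exon 2: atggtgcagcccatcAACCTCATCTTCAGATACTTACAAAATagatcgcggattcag
LSM5-208 exon 3: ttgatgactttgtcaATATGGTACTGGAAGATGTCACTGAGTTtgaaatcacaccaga

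Together the 40 genes took 9209 reads in replicate 1 and 9714 in replicate 2. These made up 0.677% of the first library (95% Wilson interval 0.663 to 0.691%) and 0.643% of the second (0.630 to 0.656%), or 0.660% ± 0.0241 on average (SD, n = 2). The median gene of the set stood at 143 and 124 CPM, against 8.09 and 8.60 for all annotated genes with a read. Levels spanned from 9.45 ± 1.19 CPM (SD, n = 2) for SNRNP27 to 642 ± 18.6 for SNRPB, and 25 of the 40 genes were above 100 CPM in both libraries.

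**Figure D1:**
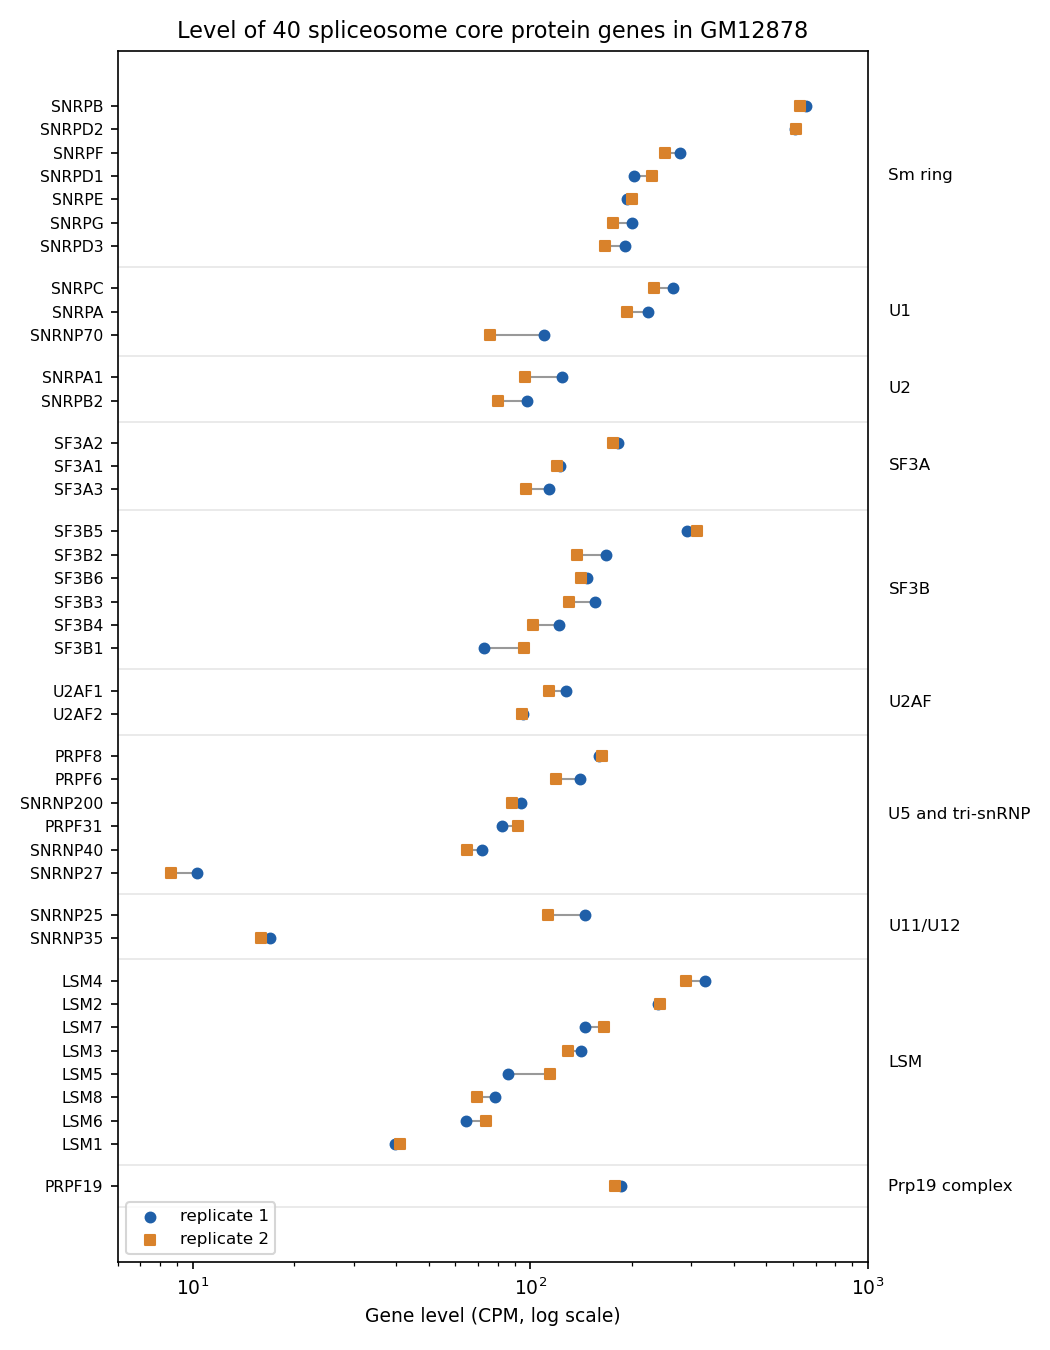
CPM on a log axis for the 40 genes, grouped by complex, with a circle for replicate 1, a square for replicate 2 and a line joining them. SNRPB, at 655 and 629 CPM, stands at the top of the Sm ring, and SNRNP27 and SNRNP35 stand below 20 CPM.

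The Sm ring is made of 1 copy each of 7 proteins, yet its genes were read at unequal levels. SNRPB had 655 and 629 CPM in replicates 1 and 2, and SNRPD2 606 and 612. SNRPF followed at 277 and 251 and SNRPD1 at 202 and 229 CPM. These 4 genes did not overlap with their neighbours in the order. SNRPE (193 and 200), SNRPG (201 and 176) and SNRPD3 (191 and 167) formed the low end of the ring, where SNRPG overlapped with both of the others while SNRPE lay above SNRPD3. The highest member exceeded the lowest by 3.43 and 3.77 times, a mean of 3.60 ± 0.242 (SD, n = 2), with the ring summing to 2294 ± 44.6 CPM. On the scale of CPM per kilobase of known model the ratio was 15.5, since SNRPD2 (676 and 682) was then highest and SNRPD1, whose annotated model is 4909 bases long, lowest (41.3 and 46.7).

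Reads were also counted at copies of SNRPG. The annotation names 20 SNRPG pseudogenes, intronless copies of the spliced RNA, and 3 of them held 138 and 136 reads beside the 273 and 266 of SNRPG itself. SNRPGP15, on chromosome 19, had 75 and 83 of these, and 217 of its 222 bases are the same as in SNRPG-201. Counted with its copies SNRPG stood at 284 ± 25.5 CPM (SD, n = 2), and the copies held 33.6% and 33.8% of the sum. Its mean was then above the 264 ± 18.6 of SNRPF, but the 302 and 266 CPM of SNRPG overlapped with the 277 and 251 of SNRPF. SNRPE had 2 copies with 24 and 41 reads in all, which brought it from 197 ± 4.62 to 219 ± 11.3 CPM. Across the set, 11 genes had 64 named pseudogenes, and 7 of these had a read, the copies of SF3A3 and SNRPC with 2 and 3 reads in replicate 2 only. Whether reads of SNRPG and SNRPE RNA were placed at the copies was not tested, and their levels are uncertain to that extent.

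Among the U1 proteins, SNRPC, whose protein helps U1 to hold the 5′ splice site, was read at 265 and 232 CPM. SNRPA, whose protein binds a stem-loop of U1 RNA, had 223 and 193. SNRNP70, the U1-70K gene, was lowest at 110 and 76.1. The 3 genes kept this order in both libraries without overlap, also per kilobase. In U2, SNRPA1 (124 and 96.6 CPM) and SNRPB2 (97.8 and 80.1), whose proteins bind U2 RNA together, overlapped.

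The SF3A and SF3B complexes anchor U2 at the branch site. SF3A2 had 182 and 175 CPM, SF3A1 123 and 120, and SF3A3 114 and 97.3, without overlap between neighbours. Per kilobase SF3A1 rather than SF3A3 was lowest. Within SF3B, the single-exon gene SF3B5 was highest at 290 and 311 CPM, also per kilobase. SF3B1, the scaffold that encloses the branch site, was lowest at 72.8 and 96.0. SF3B2, SF3B6 and SF3B3 (153 ± 21.2, 144 ± 3.81 and 143 ± 17.5) overlapped with one another in the middle, and SF3B4 stood at 112 ± 13.7 CPM (SD, n = 2).

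U2AF2, which recognises the polypyrimidine tract, had 94.8 and 94.6 CPM. U2AF1, its partner, had 127 and 114. The annotation also holds a near-identical gene, U2AF1L5, at chr21:6484623-6499261, beside U2AF1 at chr21:43092956-43107587. Over the 897 bases where U2AF1-201 and U2AF1L5-201 overlap, counted from the 3′ end, all 897 are the same, as are all 720 coding bases. U2AF1L5 had 159 and 205 reads beside the 173 and 172 of U2AF1, so reads cannot be assigned to one locus with certainty, and the sum of both was 244 and 250 CPM (247 ± 3.86).

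PRPF8, the largest protein of the spliceosome and the one that cradles its active site, was the most read U5 gene at 160 and 163 CPM. PRPF6, which bridges U5 and U4/U6, had 140 and 119. SNRNP200, the helicase that unwinds U4 from U6, had 94.1 and 88.0 and overlapped with PRPF31, a U4/U6 protein, at 82.3 and 92.0. SNRNP40 had 72.0 and 64.9. SNRNP27, a tri-snRNP protein, was the least read of all 40 genes, with 14 and 13 reads, and was too shallow for the tests of shares. Of the minor spliceosome genes, SNRNP25 had 145 and 113 CPM and SNRNP35, the U1-70K counterpart of U11, had 16.9 and 15.9.

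The LSM genes had a wider range of CPM than the Sm genes, but a narrower one on other scales. LSM2 to LSM7 are shared by the nuclear ring on U6, which is closed by LSM8, and by a cytoplasmic ring for messenger RNA decay, which is closed by LSM1. LSM4 was highest at 329 and 289 CPM, followed by LSM2 at 240 and 242. LSM8 (78.7 and 69.5) and LSM6 (64.7 and 74.1) overlapped, and LSM1 was lowest at 39.7 and 41.0. The highest LSM gene exceeded the lowest by 7.66 ± 0.869 times in CPM (SD, n = 2), beside 3.60 for the Sm ring. The order of the rings turned on other scales, with 8.75 ± 0.407 times for LSM and 15.5 ± 1.27 for Sm per kilobase, and 4.82 ± 0.156 and 6.06 ± 0.746 with known reads only (SD, n = 2). By CPM, both genes that close a ring were among the 3 least read of the 8. Per kilobase LSM2 (275 and 278) and LSM7 (251 and 286) were highest and overlapped, and LSM6 (30.4 and 34.8) was lowest on average. On that scale LSM8 (58.9 and 52.0) left the low end and lay above LSM1 (36.1 and 37.3), LSM3 (37.0 and 33.8) and LSM6. PRPF19, the ubiquitin ligase that names the Prp19 complex, had 186 and 179 CPM.

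The gene levels of the 40 did not differ between the libraries past the threshold. They were compared by an exact binomial test of the 2 counts given the library totals (two-sided, Benjamini-Hochberg adjustment over 10634 genes). It called 0 of 40, beside 5.05% of all genes tested. An unadjusted p under 0.05 was found in 6 of the 40, beside 1681 of all 10634 genes tested. Of the 40, 28 were lower and 12 higher in replicate 2, with a median log2 ratio of replicate 2 to replicate 1 of -0.11 against 0.01 over all genes tested, and 30 lay within 0.25 of 0. SNRNP70, with 149 and 115 reads, had the lowest p, with a log2 ratio of -0.52 (95% interval -0.89 to -0.16, adjusted p = 0.0649). It passed the threshold with TMM library sizes (adjusted p = 0.0474) and with a minimum of 50 reads (0.0422), within a range of 0.0422 to 0.412 over its alternatives. These settings called 5.21% and 9.62% of all genes. No member was called with DESeq2 size factors, with a minimum of 1 read or without genomic models, beside 5.01%, 2.78% and 8.26% of all genes. LSM5, with 117 and 173 reads, was at 0.41 (adjusted p = 0.182 by the exact binomial test). A wider list of 46 other spliceosome genes likewise had 0 called by this test, 5 at an unadjusted p under 0.05, with 27 lower and 19 higher and a median of -0.08.

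The kind of model the reads reached did differ. In replicate 1, 61.2% of the reads of the 40 genes lay in known models (95% Wilson interval 60.2 to 62.2%), and in replicate 2 50.8% (49.8 to 51.8%), against 56.5% and 46.4% over all annotated genes. ISM models held 27.0% and 38.2%, against 24.0% and 32.3%. NNC models held 6.96% and 5.50%, against 4.38% and 3.14% over all annotated genes, and NIC models 2.29% and 1.58%, against 4.13% and 2.90%. Genomic models held 2.55% and 3.89%, where all genes had 10.9% and 15.3% genomic. These shares are pooled over reads, so the most read genes weigh most. By gene, with at least 20 reads in each library, the median known share of the set was 64.6% and 54.4%. Over all annotated genes with such reads it was 32.5% and 17.5%, without matching for depth. Of the ISM reads of the 40 genes, 77.2% and 74.8% were of the suffix type, which keeps the 3′ end, and 5.18% and 3.64% of the prefix type. Over all annotated genes these shares were 68.4% and 68.0% for suffix and 5.82% and 4.24% for prefix. Single-exon ISM models, 36 in all, held 15.4% and 19.8%, and in 10 genes such a model had exactly the length of the last exon.

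**Figure D2:**
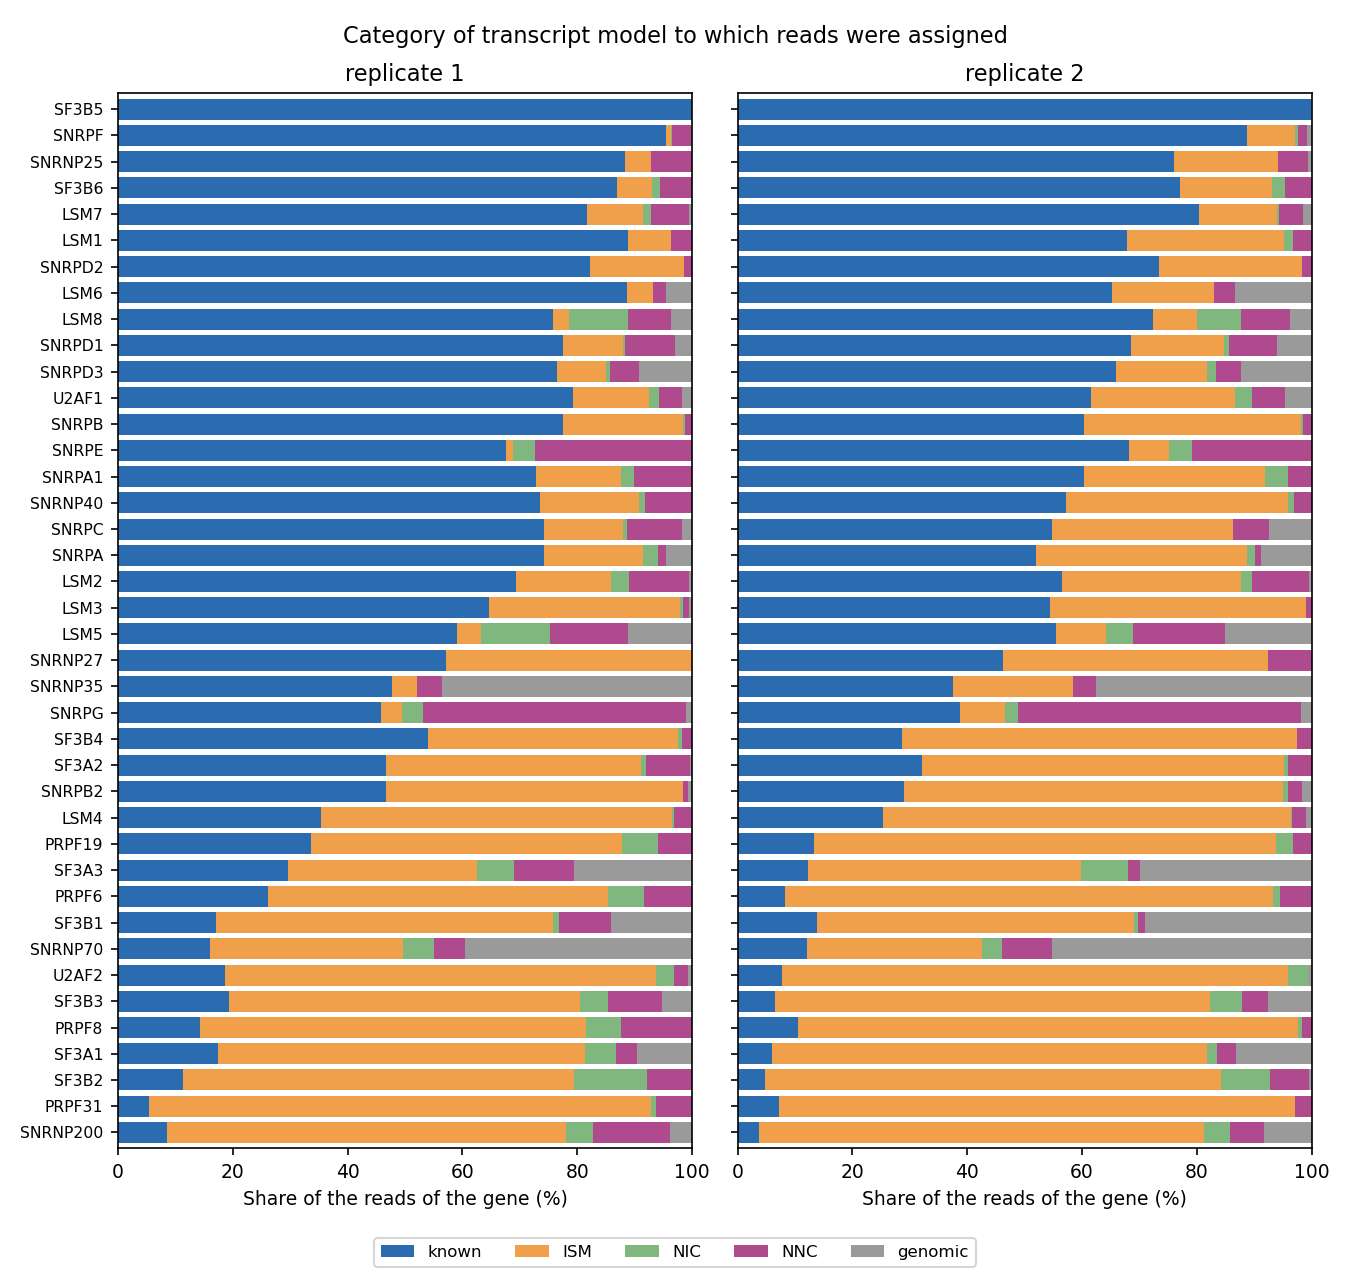
Share of the reads of each gene, in percent, in known, ISM, NIC, NNC and genomic models, with replicate 1 on the left and replicate 2 on the right, and genes ordered by their mean known share. The known share runs from 99.9% for SF3B5 at the top to 6.18% for SNRNP200 at the bottom, and the NNC band is widest in SNRPG and SNRPE.

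The known share was lower in replicate 2 in 37 of the 39 genes with at least 20 reads in each library. By a two-sided Fisher's exact test per gene with Benjamini-Hochberg adjustment over 6340 genes, it was called lower in 22 of 39 and higher in 0 of 39. Beside this, 26.9% of all genes tested were called lower and 0.268% higher. Since a deeper gene passes more easily, the share among genes with at least 100 reads in each library is the nearer background: 55.4% of all such genes and 58.8% (20 of 34) of the set were called lower. The median change of the set was -10.7 percentage points against -8.62 over all genes tested. The share called in the set was near this background.

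By complex, the genes called lower were 4 of 7 Sm genes (SNRPB, SNRPD2, SNRPD3 and SNRPF), SNRPA and SNRPC of U1, SNRPB2 of U2 and all 3 SF3A genes. The others called were SF3B3, SF3B4 and SF3B6, both U2AF genes, PRPF6, SNRNP25, LSM1, LSM2, LSM4 and LSM6, and PRPF19. Apart from SNRPE and PRPF31, the tested genes not called were also lower in replicate 2. Whether complexes differ was not tested. SF3B4, which codes for an RNA-binding subunit of SF3B, had the largest fall, from 53.9% to 28.6% of its reads (adjusted p = 6.9e-05 by Fisher's exact test). Its 4-exon ISM model went from 20 of 165 reads to 56 of 154. SNRPE (67.7% and 68.2%) and PRPF31 (5.36% and 7.19%) were the exceptions to the lower values in replicate 2, and neither passed the test.

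Known shares among the 40 genes went with the number of exons. SF3B5, with 1 exon, had 100% and 99.8% of its reads in its known model. Without a junction it cannot have ISM reads, so its value does not bear on the relation, though it is kept in the pools and in rho below. By the mean of both libraries, SNRPF (95.5% and 88.7%) came next, and SNRNP25 (88.3% and 76.0%) followed with SF3B6 close to it (means of 82.2% and 82.1%). At the other end stood SNRNP200 with 8.59% and 3.76%, PRPF31 with 5.36% and 7.19%, and SF3B2 with 11.4% and 4.81%. For each gene, the exons were counted in its most read annotated protein-coding model. The 13 genes with 1 to 4 exons pooled to 81.1% and 73.9% known, the 14 with 5 to 9 exons to 66.3% and 51.9%, and the 13 with 10 or more to 21.6% and 11.1%. Across the 40 genes, Spearman's rho between the ISM share of known and ISM reads and the number of exons was 0.83 and 0.84. With the read-weighted length of the known models it was 0.64 and 0.69. These are descriptions over genes that share the same libraries, and genes are not replicates.

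**Figure D3:**
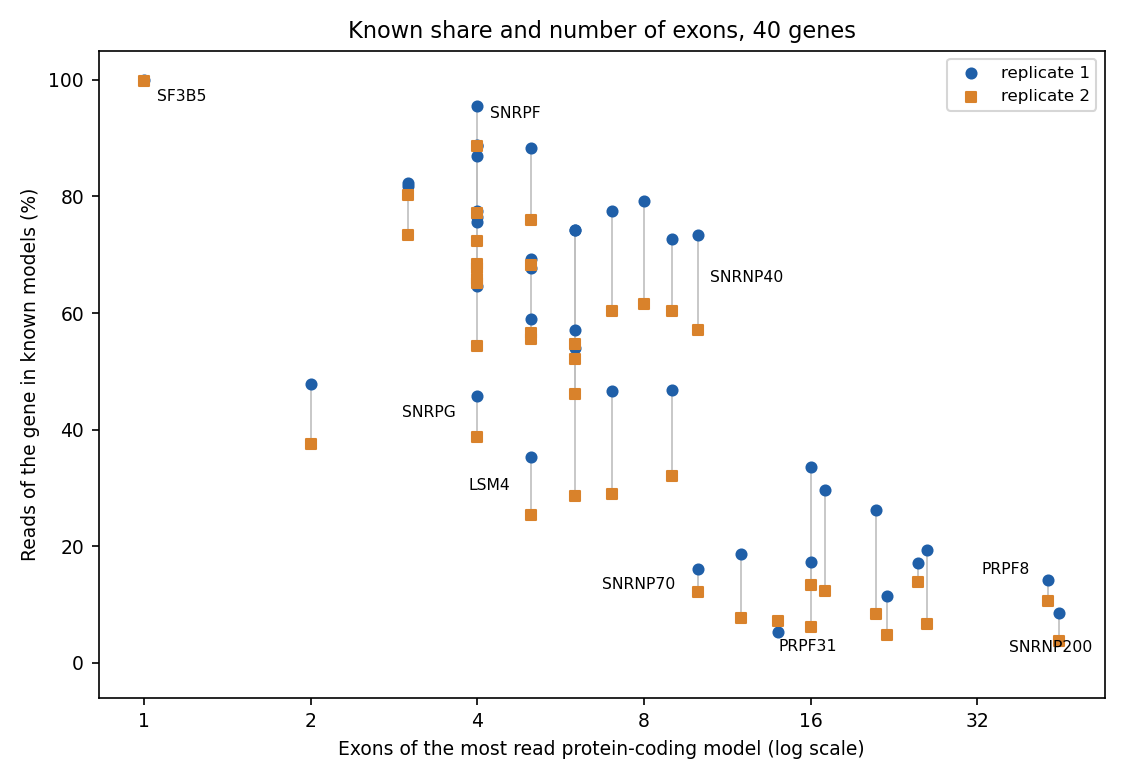
Percent of the reads of each gene in known models against the number of exons of its most read protein-coding model, on a log axis, for 40 genes, with circles for replicate 1, squares for replicate 2 and lines joining the pair. Genes with 10 or more exons lie below 35% except SNRNP40, and LSM4 and SNRPG lie low for their exon number.

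The genes of the large scaffold proteins show how often a read matched a long annotated model in full. PRPF8-201, with 43 exons and 7295 bases, was matched by 16 of 217 reads in replicate 1 (7.37%, 95% Wilson interval 4.59 to 11.6%) and by 0 of 247 in replicate 2, which allows a share of up to 1.21% when a count of 0 is read as under 3 reads (Wilson upper bound 1.53%). SNRNP200-201, with 45 exons, went from 10 of 128 reads to 0 of 133, which allows up to 2.26% by the same rule (Wilson 2.81%). Reads in other models are not counted here. In replicate 2 these models had up to 37 exons for PRPF8 and 43 for SNRNP200. SF3B3-201, with 26 exons, went from 35 of 211 reads to 2 of 197. In the 6 genes with 20 or more exons, which include SF3B1, SF3B2 and PRPF6, the full-length model took 144 of 1074 reads in replicate 1 and 29 of 1110 in replicate 2, or 13.4% (11.5 to 15.6%) and 2.61% (1.83 to 3.73%). These intervals and limits cover counting error only.

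The gene levels of these 6 did not pass the level test, while their reads covered fewer exons in replicate 2. The median read of PRPF8 lay in a model of 16 exons in replicate 1 and 7 in replicate 2. For SNRNP200 the medians were 16 and 7.5 exons, for SF3B1 12 and 6, and for SF3B3 13.5 and 7, counted over reads in spliced categories. The share of such reads in models with at least 50% of the exons went from 38.7% to 4.86% for PRPF8 and from 39.8% to 6.56% for SNRNP200. It was lower in replicate 2 in all 13 genes with 10 or more exons, and smallest in change for SNRNP70, from 87.8% to 77.8%.

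**Figure D4:**
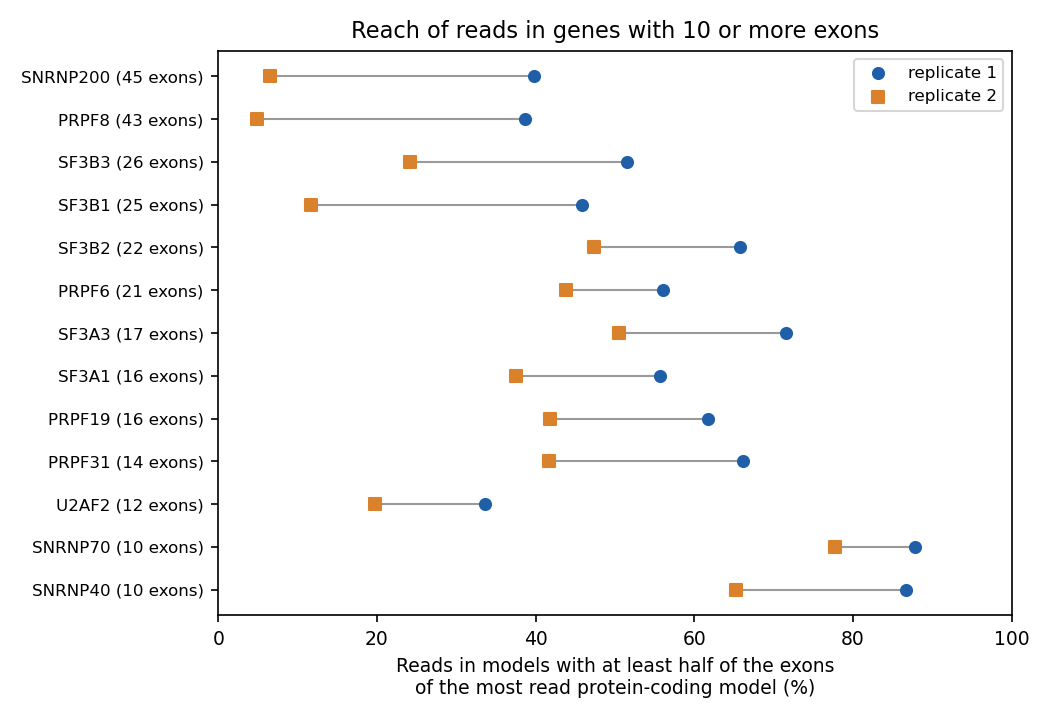
Percent of reads, genomic models left out, in models with at least 50% of the exons of the most read protein-coding model, for the 13 genes with 10 or more exons, with circles for replicate 1 and squares for replicate 2. Every square lies to the left of its circle, with PRPF8 at 38.7% and 4.86%.

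Some known models are themselves the 3′ part of a longer annotated one. In 20 of the 40 genes, 27 of the known models with reads carry only the 3′ run of junctions of a longer annotated model, and they held 16.5% and 21.1% of the known reads. SNRPD2-201, with 670 and 669 reads, is the largest of them. For PRPF8 the only known model read in replicate 2 was PRPF8-206, a 4-exon transcript annotated as retained intron, with 11 and 26 reads. Its part of the known reads of the gene went from 35.5% to 100% (adjusted p = 2.6e-06, Fisher's exact test). SF3B1-209, a 2-exon retained-intron model, had 5 and 17 reads while SF3B1-201 had 12 and 2. Whether reads of such models are separate RNAs or ends of the long RNA cannot be told apart from the junctions alone.

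Usage of the most read known model was compared in 24 genes with enough known reads, and 2 were called, PRPF8 and SNRNP40, beside 12.5% of all genes tested. SNRNP40-201, the 10-exon model, fell from 88.9% to 62.5% of the known reads of its gene (64 and 35 reads, adjusted p = 0.0068, Fisher's exact test), and the 2-exon model SNRNP40-205 had 4 and 9 reads. SNRNP40-205 carries only the 3′ run of junctions of SNRNP40-201, and such models held 9.72% and 35.7% of the known reads of SNRNP40. By junctions their reads cannot be told apart from ends of a longer RNA. With a minimum of 50 known reads in each library, LSM5 and SNRNP40 were called of 20 tested, beside 19% of all genes, and PRPF8 was not tested. Retained-intron models held 1.14% and 2.55% of the known reads of the set, and protein-coding models 98.1% and 96.4%.

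The shares of the paired forms shown as sequences did not pass a test of a difference between the libraries. For U2AF1, the form with the first exon sequence above (U2AF1-201) was 92 of 122 reads of both forms in replicate 1 and 69 of 88 in replicate 2. At U2AF1L5, whose exons have the same letters, the shares were 80.5% and 83.5%, and over both loci 77.9% (95% Wilson interval 72.3 to 82.7%) and 81.3% (75.4 to 86.0%). Their average was 79.6% ± 2.38 (SD, n = 2; Fisher's exact p = 0.410, two-sided and unadjusted). SNRPB-202, which encodes B′ with 240 codons, was 258 of 691 and 231 of 571 reads of both forms, a share of 37.3% (33.8 to 41.0%) and 40.5% (36.5 to 44.5%). SNRPB-201, which encodes B with 231 codons, held the rest (Fisher's exact p = 0.270, unadjusted). SNRPN, a close relative of SNRPB on another chromosome, had 48 and 62 reads. For LSM7, the 3-exon model LSM7-204 had 141 and 177 reads against 14 and 12 for the 4-exon LSM7-201, so that the form with fewer exons was 92.3% ± 1.90 (SD, n = 2) of the pair. LSM7-204 is one of the models that carry only the 3′ run of junctions of a longer one, here LSM7-201, so its reads cannot be told apart by junctions from ends of LSM7-201. Such models held 89.4% and 93.5% of the known reads of LSM7.

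Unannotated splicing recurred in few genes of the set. Of 219 NIC and 422 NNC models, 2 and 12 had at least 5 reads in each library, and they fell in 10 of the 40 genes. Beside this, 12.1% of all genes with at least 20 reads in each library had such a model, and 25.6% (10 of 39) of the set. Among genes with at least 100 reads in each library the shares were 30.4% of all genes and 29.4% (10 of 34) of the set, so the set was close to other genes of its depth. The most read was an NNC model of SNRPG with 3 exons and 569 bases, with 80 reads in replicate 1 (29.3% of the gene) and 92 in replicate 2 (34.6%). SNRPG-201, the annotated 4-exon form, had 112 and 96. In SNRPE, an NNC model with 4 exons and 470 bases had 64 and 51 reads, or 24.3% and 16.9% of the gene, where the annotated 5-exon SNRPE-202 had 161 and 181. The next were a second NNC model of SNRPG with 3 exons (20 and 20 reads), a 22-exon NIC model of SF3B2 (22 and 13) and a 4-exon NNC model of SNRPD1 (12 and 12).

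In the 3 genes with a short internal exon, most NNC reads lay in models with 1 exon fewer than the annotated form. These were 110 of 125 and 121 of 131 NNC reads in SNRPG, 65 of 72 and 52 of 63 in SNRPE, and 14 of 16 and 24 of 28 in LSM5. The table gives no positions for these models, so which exon is missing cannot be read from it. The NNC share was 45.8% and 49.2% in SNRPG, 27.4% and 20.9% in SNRPE, and 13.7% and 16.2% in LSM5, against a median of 6.09% and 3.45% in 34 other genes of the set with an internal exon and enough reads. The limit of 30 bases was chosen after these values were seen. LSM2, whose shortest internal exon has 31 bases, lay just outside it with 10.4% and 9.84%. Over all annotated genes, the median NNC share was 9.48% and 5.51% in 204 genes with an internal exon of 30 bases or fewer and 4.88% and 3.29% in 5035 others. The placement of reads across such short exons was not tested.

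**Figure D5:**
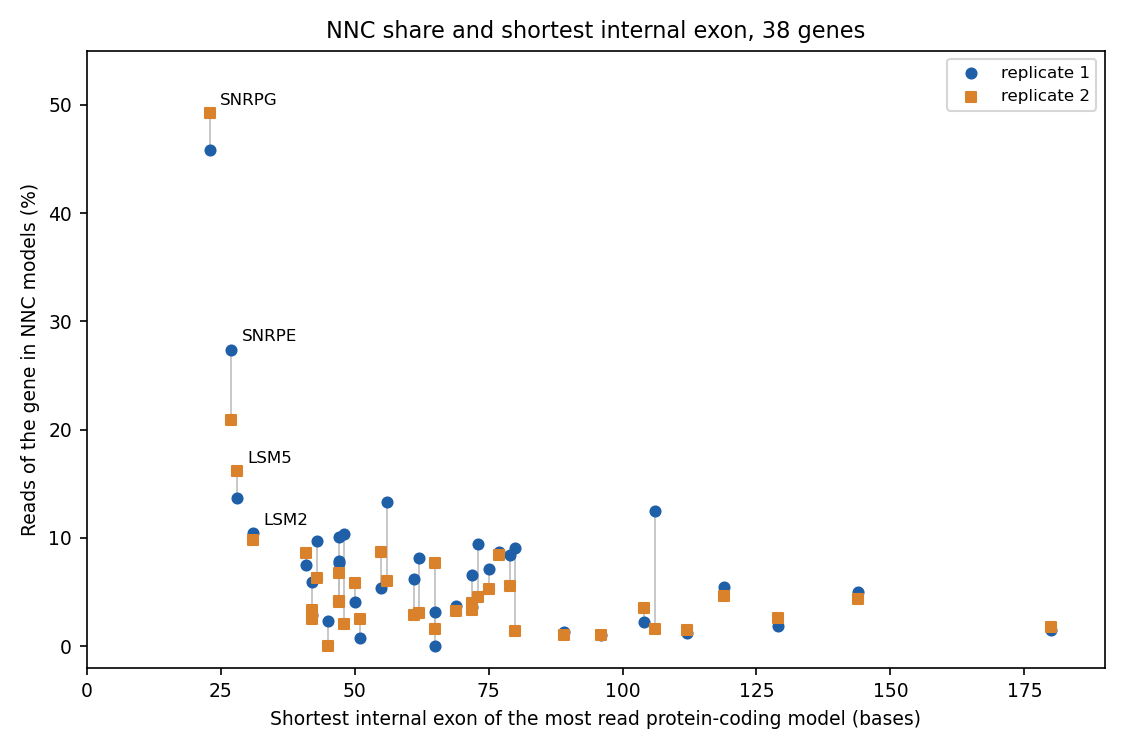
Percent of the reads of each gene in NNC models against the length in bases of the shortest internal exon of its most read protein-coding model, for 38 genes that have an internal exon, with circles for replicate 1 and squares for replicate 2. SNRPG, SNRPE and LSM5 lie at the short end, with SNRPG highest at 45.8% and 49.2%.

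With the reads of both libraries together, the most read model was not a known one in 10 of the 40 genes, being ISM in 7 and genomic in 3. This held for 6 genes in replicate 1 alone and 14 in replicate 2 alone. The genes in which it held in each library and in both together were LSM4, PRPF31, SF3B2, SNRNP70 and U2AF2. For LSM4 it was a 2-exon ISM model of 1450 bases with 188 and 172 reads, above the 147 and 103 of the 5-exon LSM4-203. For U2AF2 it was a single-exon ISM model of 782 bases, the length of the last exon of U2AF2-202, with 62 and 92 reads or 48.1% and 64.3% of the gene. U2AF2 thus had a low median of 2 exons in replicate 1 and 1 in replicate 2, at a level of 94.8 and 94.6 CPM. For PRPF31 it was an ISM model with 13 exons, 1 fewer than PRPF31-201, with 36 and 24 reads where the full model had 6 and 9.

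SNRNP70 was set apart by the type of its incomplete reads. A single genomic model of 811 bases held 56 of its 149 reads in replicate 1 (37.6%) and 47 of 115 in replicate 2 (40.9%), above the 19 and 11 reads of the 10-exon SNRNP70-206. Of its ISM reads, 74.0% and 51.4% were of the prefix type, which lacks the 3′ exons, against 5.18% and 3.64% over the set, and no other gene of the set was above 24.1% in either library. Genomic models also led in SF3A3 and SF3B1, but in replicate 2 and in the sum of both libraries, not in replicate 1. In SF3A3 a model of 1089 bases had 30 and 38 reads, beside 45 and 17 for SF3A3-201. In SF3B1 a model of 427 bases had 11 and 36 reads, beside 12 and 2 for SF3B1-201. What part of these genomic reads came from unspliced RNA was not tested.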

How the data were processed

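The 40 genes, their grouping by complex and the gene lists were chosen with earlier results of these data known. The authors deposited raw read counts per transcript model with 1 column per replicate, and the number of exons and bases of each model, which are other, non-measured properties. The name of the table shows TALON as the program that assigned reads to models; minimap2 and hg38 are named in the submitters' processing notes, and versions and read filters are not given in the sources used here. The counts of the models of a gene were added up and scaled by the library total to CPM. One direct RNA read is 1 strand, so levels were not divided by length unless stated. Exons, positions and transcript sequences came from GENCODE release 29 (GRCh38). Levels were compared with a two-sided exact binomial test in genes with at least 10 reads in all, and shares with Fisher's exact test in genes with at least 20 reads in each library, each with Benjamini-Hochberg adjustment over all genes tested and a threshold of 0.05. Log2 ratios had 0.5 reads added to each count. The tests were tried on simulated counts with counting error only and no shift between the libraries as a whole. The simulation therefore does not cover calls that arise from such a shift or from variation beyond counting error. Python 3.11.15, scipy 1.17.1, pandas 2.3.3, R 4.3.3, edgeR 4.0.16 (TMM) and DESeq2 1.42.0 (size factors) were used. All 40 genes are accounted for; those named in detail are the highest and lowest of each complex, those past a test, the 3 highest and 3 lowest known shares and the 5 NIC or NNC models most read in their lower library, and any others were chosen after their values were seen. The alternatives are given in the closing section.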

Additional observations from a re-analysis of the deposited data

How the results depend on the processing

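No paired analysis was possible because both libraries belong to 1 group. The library share of the 40 genes, 0.660%, became 0.727% with known models only and 0.735% without genomic models. The number of genes whose level differed between the libraries went from 0 to 1 with TMM library sizes and to 1 with a minimum of 50 reads, SNRNP70 in both, and to 9 with known models only (3 higher and 6 lower, PRPF6, SF3B3, SF3A3, PRPF19, SF3B4 and SNRPA), where 18.8% of all genes were called, against 5.05%, and the median gene of the table was itself at -0.26 on the log2 scale; it was 0 with DESeq2 size factors, with a minimum of 1 read and without genomic models. The known share of 56.0% became 45.6% when known models that are the 3′ run of a longer annotated model were not counted as known. Calls of a lower known share numbered 25 of 38 tested with a minimum of 50 reads, beside 45.1% of all genes, and 21 of 38 without genomic models, beside 25.5%. Usage of the most read model was called in 19 of 37 genes, not 2 of 24, when ISM, NIC and NNC models were included, beside 30% of all genes. Of the 19, 18 were lower and 1 higher in replicate 2. The share among genes of like depth is not given for this setting, so 30% is not a matched background. The mean rho of the ISM share with length was 0.66, and 0.83 with the number of exons. Genes with a recurring NIC or NNC model numbered 23 at 2 reads and 6 at 10 reads in each library. The share over all genes is not given at these cuts, so neither count has a background to be read against. The ratio of the highest to the lowest Sm gene was 6.06 with known models only and 15.5 per kilobase. Without 1 replicate or the other, the values were 0.643 to 0.677% for the library share, 50.8 to 61.2% for the known share, 0.64 to 0.69 for rho and 3.43 to 3.77 for the Sm ratio. The alternatives on 3′ runs, number of exons, the scale of the LSM ratio, distance to the first junction, U2AF1L5 and pseudogenes were chosen after seeing the data. Genes under 20 reads in a library, here SNRNP27, were too shallow for a test of shares.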
